A study of Mus musculus with 9 samples.

Results

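The expression of 10 genes that drive or mark mitosis was followed across 9 libraries of D2.0R, a mouse mammary adenocarcinoma line that the labels also write D2.OR. They were chosen by name in a table of 55492 gene rows: the cyclin genes Ccna2, Ccnb1 and Ccnb2, their kinase gene Cdk1, the mitotic kinase genes Plk1, Aurka and Aurkb, the anaphase activator gene Cdc20, and the chromosome protein genes Mki67 (Ki-67) and Top2a. All 10 had a row. Per the labels, all 9 share 1 treatment: cells took up CellTrace Far Red (CTFR), a dye that each division dilutes, spent a week in DMEM with 2% FBS in place of their usual 10%, with glutamax, before sorting on the dye. Sorted cells with dye (quiescent, by the labels) and without it (proliferative) were collected beside bulk cells, but the 9 poly(A) libraries carry an identical description, so 0 of them could be put in a kind. Libraries are therefore named by their title number, no library is read as quiescent or dividing, and no means or tests between kinds are given. Blocks 1 to 3, 4 to 6 and 7 to 9 below are a split of the title numbers only. No source used here says whether the libraries came from separate cultures, so the tests measure spread between these libraries only.

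Entry into mitosis is driven by CDK1, which is active only when bound to a cyclin: cyclin A2 works from S phase into early mitosis, and the B cyclins carry the cell to metaphase. Polo-like kinase 1 and Aurora A help to switch CDK1 on and build the spindle, and Aurora B corrects chromosome attachment. The anaphase-promoting complex (APC/C), a ubiquitin ligase activated by CDC20, then destroys the cyclins and ends mitosis. Transcripts of these genes accumulate in S and G2 phases and are low in resting cells, which is why Ki-67 and topoisomerase II alpha serve as proliferation markers in breast tumours.

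Genes of this kind share 2 well-known promoter elements, the CHR (cell cycle genes homology region) and the CCAAT box, so the sequence around the RefSeq start was read for the members in the RefSeq promoter table (GRCm38.p6), which holds 8 of the 10 (all but Ccna2 and Aurkb). Letters were searched on both strands, and none of the 3 motifs contains another. Each window runs from 250 bases before the start to 50 bases from it. TTTGAA, the usual CHR letters, stood on either strand in 7 of the 8 windows, against 17.9% of the 32851 windows in that table. TTCGAA, a variant, stood in 1 of the 8 (Top2a) against 1.56%. CCAAT stood in 8 of 8 against 37.4%, and 2 or more copies in 7 of 8 against 11.7%. A match is a run of letters, not a bound site. The part of 6 windows from 120 bases before the start to 50 bases from it is shown here 5′ to 3′ on the gene's strand with the CHR and CCAAT letters, or their reverse complements, in capitals. They are shown because they let the spacing of CHR and CCAAT letters be compared between the members. Another reason is that neither TTTGAA nor TTCGAA is in this window of Ccnb1. No other CHR letters were searched for, so whether Ccnb1 holds another form of the CHR was not tested.

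Ccnb2 (chr9:70421505-70421674, minus strand): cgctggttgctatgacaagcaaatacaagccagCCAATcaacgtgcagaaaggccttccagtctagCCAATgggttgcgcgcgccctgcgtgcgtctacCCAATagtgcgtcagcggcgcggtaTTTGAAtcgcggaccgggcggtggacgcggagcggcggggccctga
Cdc20 (chr4:118437294-118437463, minus strand): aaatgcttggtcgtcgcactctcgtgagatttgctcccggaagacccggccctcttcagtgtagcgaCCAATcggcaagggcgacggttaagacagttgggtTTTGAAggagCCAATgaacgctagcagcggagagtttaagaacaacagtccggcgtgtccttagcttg
Aurka (chr2:172370521-172370690, minus strand): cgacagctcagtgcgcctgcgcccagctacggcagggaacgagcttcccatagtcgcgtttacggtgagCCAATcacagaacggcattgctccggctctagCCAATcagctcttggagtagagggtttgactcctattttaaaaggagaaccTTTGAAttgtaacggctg
Plk1 (chr7:122159315-122159484, plus strand): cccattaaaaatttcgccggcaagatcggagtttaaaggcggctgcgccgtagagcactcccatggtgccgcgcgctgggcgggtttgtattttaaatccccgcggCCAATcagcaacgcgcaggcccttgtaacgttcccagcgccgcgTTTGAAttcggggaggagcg
Cdk1 (chr10:69352863-69353032, minus strand): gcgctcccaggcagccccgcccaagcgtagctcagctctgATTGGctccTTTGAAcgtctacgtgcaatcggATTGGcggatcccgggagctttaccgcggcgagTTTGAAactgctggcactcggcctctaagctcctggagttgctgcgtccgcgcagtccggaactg
Ccnb1 (chr13:100786437-100786606, minus strand): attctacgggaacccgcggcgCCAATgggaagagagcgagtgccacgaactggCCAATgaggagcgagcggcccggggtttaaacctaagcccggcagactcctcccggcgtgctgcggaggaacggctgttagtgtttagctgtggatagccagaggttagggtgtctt

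With the first transcribed base of RefSeq as 0, the CHR letters shown begin at 4 in Ccnb2, with CCAAT beginning at -87, -54 and -21. In Cdc20 they begin at -18, between CCAAT boxes at -53 and -8. In Aurka and Plk1 they begin past the start, at 32 and 30, and in Cdk1 at -71 and -15 beside reversed CCAAT boxes at -80 and -48.

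Before the members' values, the libraries themselves were checked. Totals ran from 18732737 to 41243036 estimated counts, and the members' values rested on 17 to 5460 counts each. Values are CPM, the counts of a gene per 1000000 counts of its library, after TMM scaling, which corrects library size for composition. Among markers of other cells, 5 of 7 NK genes had 0 counts throughout and the summed NK list reached at most 2.94 CPM. Of 7 leukocyte genes 2 (Cd68 and Cd14) reached 1 CPM, while Ptprc, the pan-leukocyte gene, stayed at or below 0.109 CPM. The summed leukocyte list was highest in library 1 (15.7 CPM) and least in library 8 (5.89 CPM), and the 5 endothelial genes together held 8.95 to 15.8 CPM, with Cdh5 at 0 counts. Of 9 fibroblast genes 4 reached 1 CPM, and their sum spanned 2692 CPM (library 1) to 7897 CPM (library 2). Of 7 epithelial genes 4 reached 1 CPM (Krt8 at 146 to 662, Krt18 at 38.01 to 156, Cdh1 at 5.46 to 13.03 and Krt14 at up to 1.31 CPM), while Epcam, Krt5 and Krt19 stayed below that. Their sum was least in library 6 (228 CPM) and greatest in library 8 (783 CPM).

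All 10 members differed between libraries, and in nearly the same order. Libraries 8 and 5 led in all 10, followed by libraries 2 and 7. In 9 of the 10, library 9 came next and libraries 4, 6, 1 and 3 were the lowest 4; Cdk1 was the exception. The highest library was 8 in 10 of 10 members (beside 17.1% of all genes tested) and the lowest was 3 in 7 of 10 (beside 6.59%). A chi-square test of dispersion across the 12813 genes that passed edgeR's filter on low counts asked whether a gene's 9 counts varied beyond counting noise. The call of a variable gene needed a Benjamini-Hochberg adjusted p below 0.05 and at least 2-fold between the extreme libraries. All 10 members were variable (the largest adjusted p was 1.50e-195, for Aurka), beside 28.0% of all genes tested. Their ranges had a median of 4.04 in log2 units (16.5-fold), and those of all genes tested 0.69 (1.61-fold). A range of at least 3 on the log2 scale was seen in 9 of the 10 members and in 1.69% of all genes tested. In bulk RNA, fewer dividing cells and less of a transcript per cell cannot be told apart. The plot of all members by library shows the shared pattern.

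**Figure D1:**
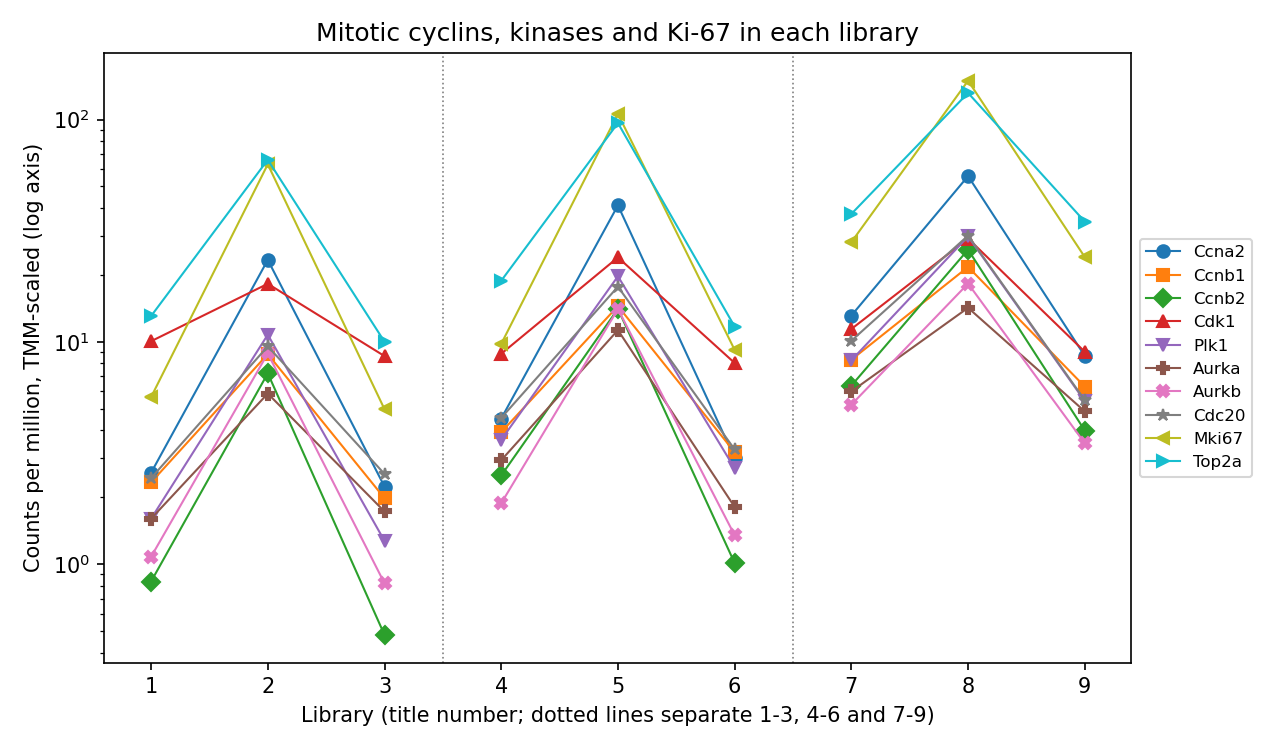
TMM-scaled CPM (log axis) of the 10 members in each of the 9 libraries, joined within title numbers 1-3, 4-6 and 7-9. Every member peaks at library 2, 5 or 8 within its block, and library 8 holds the highest value of all 10.

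Among the cyclins, Ccna2 (ENSMUSG00000027715, chromosome 3 at 36564865 to 36572150 of GRCm38), which encodes cyclin A2, stood at 2.58, 23.4 and 2.24 CPM in libraries 1 to 3, 4.52, 41.1 and 3.01 in libraries 4 to 6, and 13.1, 55.7 and 8.64 in libraries 7 to 9. Its lowest value was in library 3 and its highest in library 8, a 24.9-fold difference (exact 95% interval 19.9 to 31.6). Ccna2 overlaps Exosc9 over 863 bases on the other strand, and since the strand setting of the counting is not given, reads there cannot be told apart.

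Ccnb1 (ENSMUSG00000041431, chromosome 13 at 100778650 to 100786570), the gene of cyclin B1, stood at 2.33, 8.81 and 1.98 CPM in libraries 1 to 3, 3.92, 14.5 and 3.19 in libraries 4 to 6, and 8.31, 21.7 and 6.29 in libraries 7 to 9. It took the same order of libraries as Ccna2 over a narrower span of 10.97-fold (8.59 to 14.2). Ccnb2 (ENSMUSG00000032218, chromosome 9 at 70407692 to 70421547), the gene of cyclin B2, stood at 0.836, 7.22 and 0.481 CPM in libraries 1 to 3, 2.51, 14.1 and 1.01 in libraries 4 to 6, and 6.35, 26.0 and 3.99 in libraries 7 to 9. This was the widest span of the 10, 54.0-fold (33.5 to 93.1), and its lowest value, in library 3, rested on 17 counts.

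The cyclin B2 span changed when the row of a pseudogene was added. Whether any reads of the pseudogene row came from Ccnb2 was not tested. Ccnb2-ps, a pseudogene listed on a row of its own, held 24 to 64 counts per library and was not variable (0.956 to 1.87 CPM). In libraries 1, 3 and 6 its 39, 62 and 50 counts exceeded the 24, 17 and 33 counts of Ccnb2. With both rows added, an alternative chosen after seeing the data, the span fell to 12.6-fold (9.76 to 16.5), with the lowest value in library 1 in place of library 3. The pseudogene of Ccnb1 held at most 3 counts. Ccnb2-ps too was highest at the second library of every block (1.82, 1.87 and 1.67 CPM in libraries 2, 5 and 8), as were 28.6% of all genes tested. Its span, from library 4 to library 5, was 1.96-fold (1.22 to 3.19). In the plot of the B cyclins Ccnb2 crosses the narrower band of the pseudogene.

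**Figure D2:**
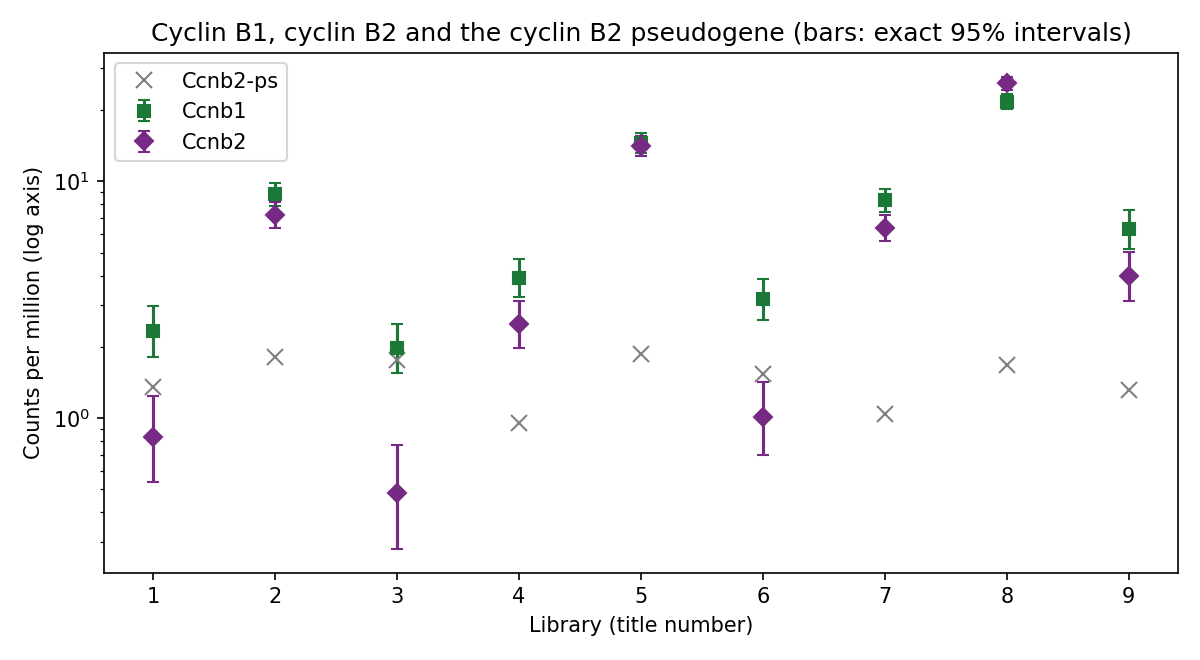
CPM (log axis) of Ccnb1, Ccnb2 and Ccnb2-ps in each library, with exact 95% counting intervals for the 2 cyclins. Ccnb2 spans 0.481 to 26.0 CPM while its pseudogene stays between 0.956 and 1.87.

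The proportion of the B cyclins differed between libraries on the Ccnb2 row alone, and much less with Ccnb2-ps added. On its own row Ccnb2 had 0.243 counts per Ccnb1 count in library 3 (exact 95% interval 0.134 to 0.417), 0.639 in library 4 (0.472 to 0.859), 0.971 in library 5 (0.845 to 1.12) and 1.20 in library 8 (1.09 to 1.32). These are ratios of counts, not corrected for length. With Ccnb2-ps added to Ccnb2 the ratio was 1.13 in library 3 (0.808 to 1.58) and 1.27 in library 8 (1.16 to 1.40), with overlapping intervals, and the lowest was 0.798 in library 6 (0.591 to 1.08). The interval of library 8 still lay above those of libraries 4, 6, 7 and 9, so a difference beyond counting error remained.

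Cdk1 (ENSMUSG00000019942, chromosome 10 at 69335146 to 69352938), the kinase that all these cyclins activate, had the narrowest span. It stood at 10.1, 18.2 and 8.63 CPM in libraries 1 to 3, 8.84, 24.0 and 8.04 in libraries 4 to 6, and 11.4, 29.2 and 9.02 in libraries 7 to 9. The span was 3.63-fold (3.17 to 4.17), from library 6 to library 8. Below the leading 3 libraries its values fell in small steps: libraries 7, 1, 9, 4, 3 and 6 followed each other in that order, and none of these 5 steps could be told apart by counting error. The steps added up, however. Library 7 (exact 95% interval 10.4 to 12.5 CPM) lay above library 6 (7.09 to 9.07 CPM) without overlap. Ccna2 accordingly had 0.256 counts per Cdk1 count in library 1 and 1.91 in library 8.

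Of the mitotic kinases, Plk1 (ENSMUSG00000030867, chromosome 7 at 122159439 to 122169873) stood at 1.60, 10.8 and 1.27 CPM in libraries 1 to 3, 3.63, 19.7 and 2.70 in libraries 4 to 6, and 8.26, 29.8 and 5.41 in libraries 7 to 9. Its span was 23.4-fold (17.4 to 32.3), and of its 8 steps between neighbouring libraries only the lowest, from 1 to 3, could not be told from counting error. Aurkb (ENSMUSG00000020897, chromosome 11 at 69045647 to 69051664), the Aurora kinase of the centromere and midbody, stood at 1.08, 8.87 and 0.821 CPM in libraries 1 to 3, 1.88, 14.0 and 1.35 in libraries 4 to 6, and 5.22, 18.3 and 3.50 in libraries 7 to 9. That was a span of 22.3-fold (15.4 to 33.5).

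Aurka (ENSMUSG00000027496, chromosome 2 at 172356190 to 172370535), the Aurora kinase of the spindle poles, stood at 1.60, 5.86 and 1.73 CPM in libraries 1 to 3, 2.93, 11.3 and 1.81 in libraries 4 to 6, and 5.98, 14.2 and 4.87 in libraries 7 to 9. Its span, 8.88-fold (6.56 to 12.3), was narrower than that of Aurkb, and the intervals of the 2 spans did not overlap. Counts of Aurkb per count of Aurka ran from 0.475 in library 3 (0.295 to 0.751) to 1.51 in library 2 (1.27 to 1.81). The interval lay above 1 in libraries 2, 5 and 8 and in none of the other 6.

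Cdc20 (ENSMUSG00000006398, chromosome 4 at 118432901 to 118437352), which activates the APC/C at metaphase, stood at 2.44, 9.55 and 2.55 CPM in libraries 1 to 3, 4.55, 17.7 and 3.28 in libraries 4 to 6, and 10.1, 30.1 and 5.47 in libraries 7 to 9. The span was 12.3-fold (9.68 to 15.9), and as in Aurka its lowest library was 1 and not 3. Libraries 1 and 3 could not be told apart in either gene. Cdc20 overlaps Elovl1 on the other strand by 53 bases.

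Mki67 (ENSMUSG00000031004, chromosome 7 at 135689784 to 135716361), whose protein coats mitotic chromosomes, stood at 5.64, 62.9 and 4.98 CPM in libraries 1 to 3, 9.79, 106 and 9.20 in libraries 4 to 6, and 28.1, 149 and 24.1 in libraries 7 to 9. Its 30.01-fold span (25.8 to 35.1) was exceeded only by that of Ccnb2, and was the widest where the pseudogene is added to Ccnb2. Top2a (ENSMUSG00000020914, chromosome 11 at 98992943 to 99024189), which untangles sister chromatids, stood at 13.1, 65.9 and 10.02 CPM in libraries 1 to 3, 18.8, 96.4 and 11.7 in libraries 4 to 6, and 37.6, 132 and 34.7 in libraries 7 to 9. Its span was 13.1-fold (11.8 to 14.7). Between libraries 1 and 3, the low end, Top2a alone of the 10 had a ratio whose interval left out 1 (1.304, 1.12 to 1.51).

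Library 8 set the top of every span. Without it the ranges on the log2 scale fell from 5.58 to 4.70 in Ccnb2, from 4.48 to 3.89 in Plk1 and from 3.59 to 2.83 in Cdc20, and the range of the members' median profile fell from 4.26 to 3.42. Without library 3 the range of Ccnb2 was 4.85. These are the members and libraries for which leaving out a library moved the span by over 1.5-fold, and all 10 members were still called variable without any 1 library.

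Levels can be compared between genes only per length, so CPM were divided by the kilobases of a gene's merged exons. On this scale the median over the libraries ran from 1.19 CPM per kilobase in Aurkb to 3.85 in Top2a, with Cdc20 at 2.93, Ccnb2 at 2.61, Mki67 at 2.39, Cdk1 at 2.04 and Ccnb1 at 1.49. Merged exons measured from 1531 bases in Ccnb2 to 10061 in Mki67, so the lead of Mki67 in plain CPM in library 8 was not kept per kilobase (14.9, below Ccnb2). At its lowest library Cdk1 still had 1.63 CPM per kilobase, the highest floor of the 10, followed by Cdc20 at 1.31 and Top2a at 1.11, whereas Aurkb stood at 0.279. In library 8 Ccnb2 (17.0) and Cdc20 (16.1) led and Ccnb1 (5.15) was last. Merged exons include those of rare isoforms, so these levels are approximate.

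The members ranked the libraries almost alike. Of the 36 pairs of libraries, 30 were ordered the same way by all 10 members. The exact order 8, 5, 2, 7, 9, 4, 6, 1, 3 was that of Ccna2, Ccnb1, Ccnb2, Plk1, Aurkb and Mki67. Counting error limits how finely the order can be read: of 80 steps between neighbouring libraries, 30 had an exact 95% interval of the ratio that included 1. Of the 6 pairs on which members disagreed, Cdk1 stood alone against the other 9 in 3 (libraries 1 and 4, 1 and 9, and 3 and 6). Cdk1 was 1.14-fold higher in library 1 than in library 4 (0.961 to 1.35), a difference within counting error, while the other 9 were lower there with intervals below 1. Cdk1 and Top2a alone were higher in library 1 than in library 6, beyond counting error in Cdk1 alone (1.25, 1.06 to 1.49). In that pair Plk1 (0.594, 0.406 to 0.857) and Mki67 (0.613, 0.503 to 0.745) were lower in library 1 beyond counting error. Cdk1 thus differed from them in direction there. Aurka and Cdc20 differed from the other 8 between libraries 1 and 3, within counting error.

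In the remaining pair, libraries 7 and 2, the size of the ratio differed between members beyond counting error, but its direction did not. Cdc20 (10.1 against 9.55 CPM) and Aurka (5.98 against 5.86 CPM) had the higher value in library 7, but not beyond counting error, with ratios of 1.06 (0.914 to 1.23) and 1.02 (0.845 to 1.24). Ccnb1 at 0.943 (0.806 to 1.10) and Ccnb2 at 0.880 (0.737 to 1.05) could not be told from 1 either. The other 6 members were lower in library 7, with intervals below 1: Plk1 at 0.767 (0.660 to 0.891), Cdk1 at 0.626 (0.554 to 0.707), Aurkb at 0.588 (0.492 to 0.703), Top2a at 0.571 (0.535 to 0.609), Ccna2 at 0.562 (0.503 to 0.628) and Mki67 at 0.447 (0.415 to 0.480). The intervals of Cdc20 and Mki67 did not overlap. Between libraries 8 and 5 all 10 members were higher in library 8, from 1.22 (1.10 to 1.34) in Cdk1 to 1.85 (1.64 to 2.08) in Ccnb2, with all intervals above 1. These intervals cover counting error between 2 libraries and not variation between cultures.

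**Figure D3:**
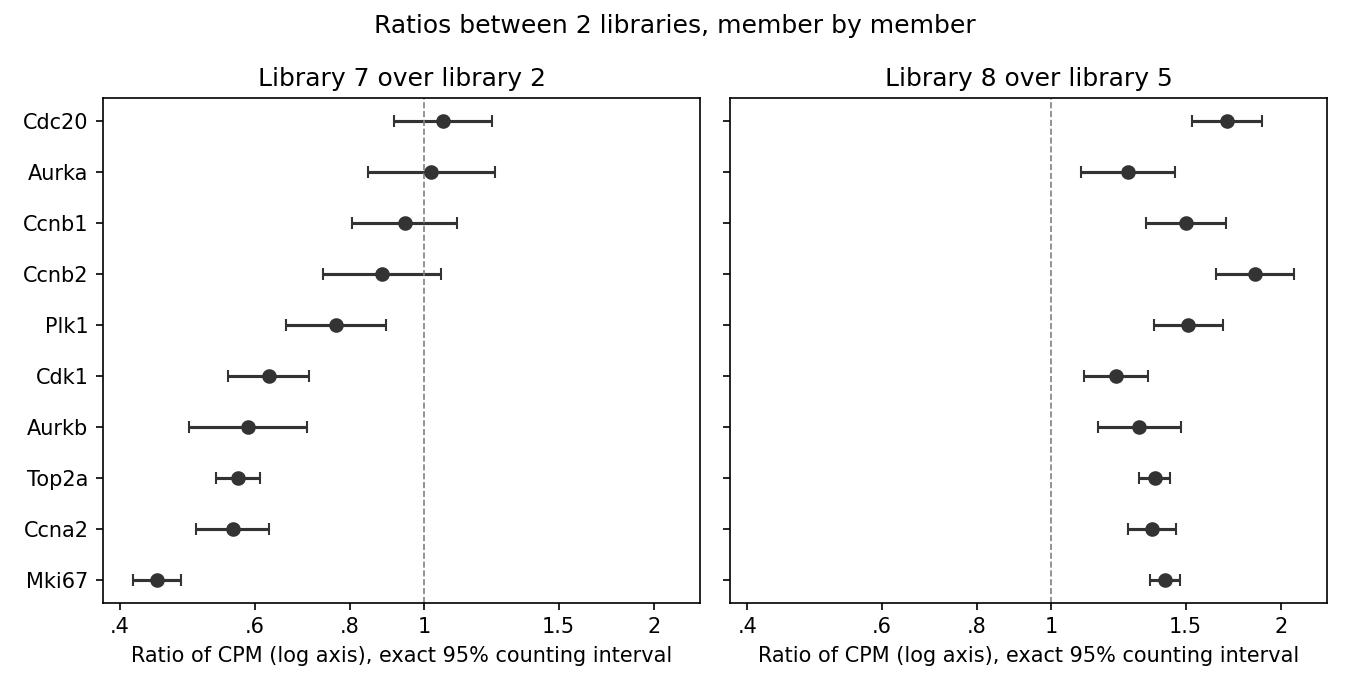
Ratio of CPM between 2 libraries for each member (log axis), with exact 95% counting intervals; library 7 over library 2 at left, library 8 over library 5 at right. At left the members spread from 0.447 (Mki67) to 1.06 (Cdc20), and at right all 10 lie above 1.

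By title number, the second library of each block was the highest of its block in all 10 members (beside 28.6% of all genes tested), and the last block was the highest at each of the 3 positions in all 10 (beside 21.1%). Both held together in 10 of 10 members and in 5.85% of all genes tested. In Cdk1 the lead of the last block was within counting error at the first position (library 7 over 1, 0.978 to 1.32) and at the third (library 9 over 6, 0.919 to 1.37). The opposite order, with the second library lowest in every block, was seen in 0 members and 29.5% of all genes tested, so a second position that stands apart is common in this table in either direction. In libraries 1 to 3 the second exceeded the first 5.88-fold at the median member, from 1.81-fold in Cdk1 to 11.1-fold in Mki67. In libraries 4 to 6 the median was 5.28-fold (2.71 in Cdk1 to 10.8 in Mki67), and in libraries 7 to 9 it was 3.50-fold (2.38 in Aurka to 5.32 in Mki67).

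Against the third library of its block the second stood 7.52-fold higher at the median member in libraries 1 to 3, 7.77-fold in libraries 4 to 6 and 5.36-fold in libraries 7 to 9, with Ccnb2 on its own row the widest each time (15.01, 13.9 and 6.51-fold). With Ccnb2-ps added these fell to 4.04, 6.26 and 5.21-fold, below Mki67 (12.6, 11.5 and 6.21-fold) and Ccna2 (10.5, 13.7 and 6.44-fold). The first exceeded the third in 8, 10 and 10 of the members, by medians of 1.17, 1.39 and 1.41-fold, but with an interval above 1 in only 1, 6 and 8 of them. Across blocks, library 8 stood 1.39-fold over library 5 at the median member, and library 5 stood 1.72-fold over library 2. At the first position the steps were 2.25-fold (library 7 over 4) and 1.75-fold (4 over 1), and at the third 2.60-fold (9 over 6) and 1.48-fold (6 over 3). From the first block to the last, the median member stood 4.49-fold higher at the first position, 2.41-fold at the second and 3.67-fold at the third. In Cdk1 these were 1.13, 1.60 and 1.05-fold, with an interval above 1 at the second position alone (1.45 to 1.76). The other 9 members had intervals above 1 at all 3 positions. Krt8, an epithelial keratin gene, moved with the members: it stood at 307, 411 and 662 CPM in libraries 2, 5 and 8 and at 146 to 283 CPM in the other 6, without overlap. Krt18, its usual keratin partner, did not: it was highest in library 1 (156 CPM) and stood at 91.3, 88.1 and 106 CPM in libraries 2, 5 and 8. Of the other epithelial genes, Cdh1 peaked at the second library of every block (11.1, 10.5 and 13.03 CPM), though library 7 held 11.6 CPM. Krt14 was highest in library 8 (1.31 CPM) but did not peak at library 2. Epcam, Krt5 and Krt19, all below 1 CPM, did not have the peak in every block. The 4 fibroblast genes above 1 CPM also peaked at the second library of every block, as did 28.6% of all genes tested. The rest of that list, Dcn, Lum, Dpt, Pdpn and Thy1, reached at most 0.592 CPM. Of these, Dcn, Pdpn and Thy1 did not have the same peak. Lum and Dpt did, but in libraries 5 and 8 it rested on 1 to 3 counts, too few to read. From library 2 to 5 to 8, Col1a1 stood at 3521, 4012 and 4224 CPM, in the members' order, and Col3a1, Pdgfra and Pdgfrb stood in the opposite order (Pdgfra at 865, 673 and 458 CPM). The part of these genes in the result was not tested. Libraries 2, 5 and 8 held 34165502, 27880290 and 35222378 counts, inside the span of the others. The part of depth in the result was not tested.

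Relatives of the members in the same gene families did not all take part. Of 10 listed relatives 7 passed the filter, and 4 of these were variable, beside 28.0% of all genes tested; the median range of the 7 was 1.03 on the log2 scale, against 0.69 over all genes tested. The germline cyclin genes Ccna1 and Ccnb3 had 0 counts in every library, and Aurkc, the germline Aurora kinase gene, reached at most 0.0547 CPM. Plk4, which starts centriole duplication, shared the members' peak at the second library of each block, at 3.80, 8.64 and 3.11 CPM in libraries 1 to 3, 2.90, 13.3 and 2.301 in libraries 4 to 6, and 5.91, 17.7 and 4.65 in libraries 7 to 9. Unlike the median member, it had lower values in library 4 than in library 1 and in library 6 than in library 3. Ccnf, the cyclin F gene, was lowest in library 3 (3.91) and peaked in library 8 (18.4 CPM).

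Plk3 and Plk2, stress-responsive kinases, went the other way within each block, with the second library lowest. From block to block, though, Plk3 rose at each position, as the median member did. Plk3 stood at 37.9, 13.7 and 24.8 CPM in libraries 1 to 3, 45.0, 14.4 and 33.4 in libraries 4 to 6, and 52.1, 18.7 and 36.7 in libraries 7 to 9, so that the libraries where Plk1 was highest were those where Plk3 was lowest. Plk2 had its 3 lowest values, 38.4, 43.6 and 48.6 CPM, in libraries 2, 5 and 8 and its peak of 78.8 CPM in library 1, just over the 2-fold threshold (1.03 on the log2 scale), and it fell below that without library 1 (0.98), 2 (0.82), 6 (0.9997) or 7 (0.9991).

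The other 3 tested relatives stayed within 2-fold. Cdk2, the S-phase kinase gene, ran from 20.9 to 31.6 CPM, and Fzr1, which encodes the APC/C activator of G1 (CDH1), from 25.8 to 44.1 CPM. Top2b, the topoisomerase II gene of resting as well as dividing cells, ran from 181 to 234 CPM, a span of 1.29-fold (1.25 to 1.34) beside 13.1-fold in Top2a. All 7 tested relatives were dispersed beyond counting noise, as were 94.1% of all genes tested.

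**Figure D4:**
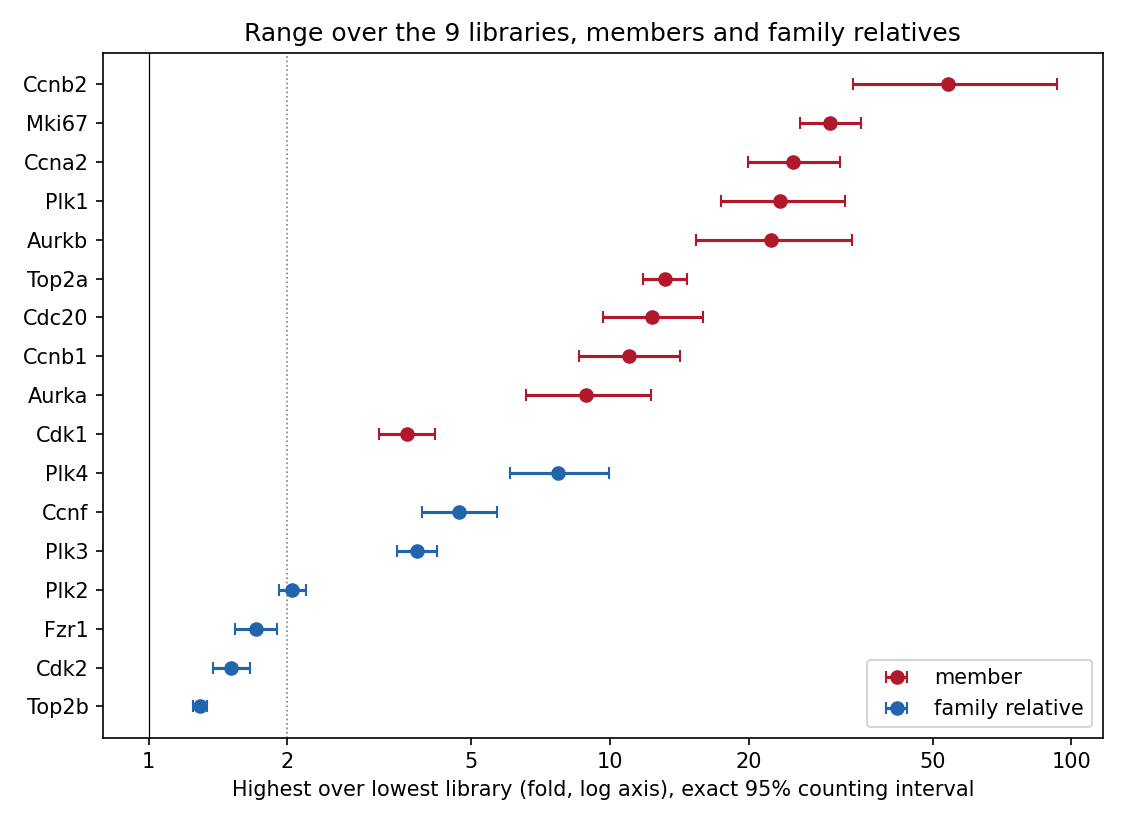
Highest over lowest library (fold, log axis) with exact 95% counting intervals for the 10 members and the 7 tested family relatives; the dotted line marks 2-fold. Members run from 3.63-fold (Cdk1) to 54.0-fold (Ccnb2), relatives from 1.29-fold (Top2b) to 7.71-fold (Plk4).

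Genes that act on the members were counted in 3 lists, each set beside the share of variable genes and the median log2 range of all genes tested. In the switch that sets CDK1 activity 6 of 13 genes were variable, with a median range of 0.83 (all genes 28.0% and 0.69). The widest were Cdc25c, a phosphatase that activates CDK1 (0.488 CPM in library 1 to 5.56 in library 8), Mastl, the Greatwall kinase gene (1.39 to 12.5 CPM in the same libraries), and Pkmyt1, a kinase that inhibits CDK1 (2.23 to 12.1 CPM, likewise). The narrowest were subunits of the opposing phosphatase PP2A, Ppp2r1a at 169 to 191 CPM and Ppp2r2d at 25.7 to 31.5 CPM. Of the 6 calls, those of Cdc25b and Cks1b were lost without library 8 (ranges of 0.83 and 0.70), and that of Cdc25b also without library 3 (0.89).

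Among partners of the Aurora and Polo kinases 11 of 12 were variable and the median range was 2.95 on the log2 scale (all genes 28.0% and 0.69), and all 12 were highest in library 8, as were 17.1% of all genes tested. The widest were Birc5, the survivin subunit of the Aurora B complex (1.22 CPM in library 1 to 23.8 in library 8), Sgo1, which protects centromere cohesion (0.488 to 7.69 CPM), and Kif20a, a kinesin of cytokinesis (3.99 to 53.2 CPM). The narrowest were Cep192, a centrosome scaffold gene (22.5 to 41.6 CPM, not variable), and Incenp, the scaffold of the Aurora B complex (19.4 to 55.5 CPM).

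In the list of the APC/C and its substrates 4 of 18 genes were variable and the median range was 0.45 (all genes 28.0% and 0.69), so the list as a whole did not exceed the background. The 4 were Ube2c, the E2 enzyme that works with the APC/C (0.764 CPM in library 3 to 21.6 in library 8), Espl1, the separase gene (1.04 to 23.8 CPM), Pttg1, the securin gene (1.10 to 8.92 CPM), and Fbxo5, the APC/C inhibitor EMI1 (1.37 to 5.83 CPM). None of the 13 listed subunits of the APC/C itself was variable: their ranges ran from 0.23 in Anapc10 to 0.71 in Cdc16, on the log2 scale. By the dispersion test alone 17 of the 18 listed genes varied beyond counting noise, all but Anapc10 (adjusted p = 0.156 by the chi-square test with Benjamini-Hochberg adjustment). Anapc10 (13.6 to 15.9 CPM) and Anapc11 (37.9 to 45.7 CPM) were the narrowest of the list, against the 12.3-fold span of their activator Cdc20. The strip plot of ranges sets these lists side by side.

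**Figure D5:**
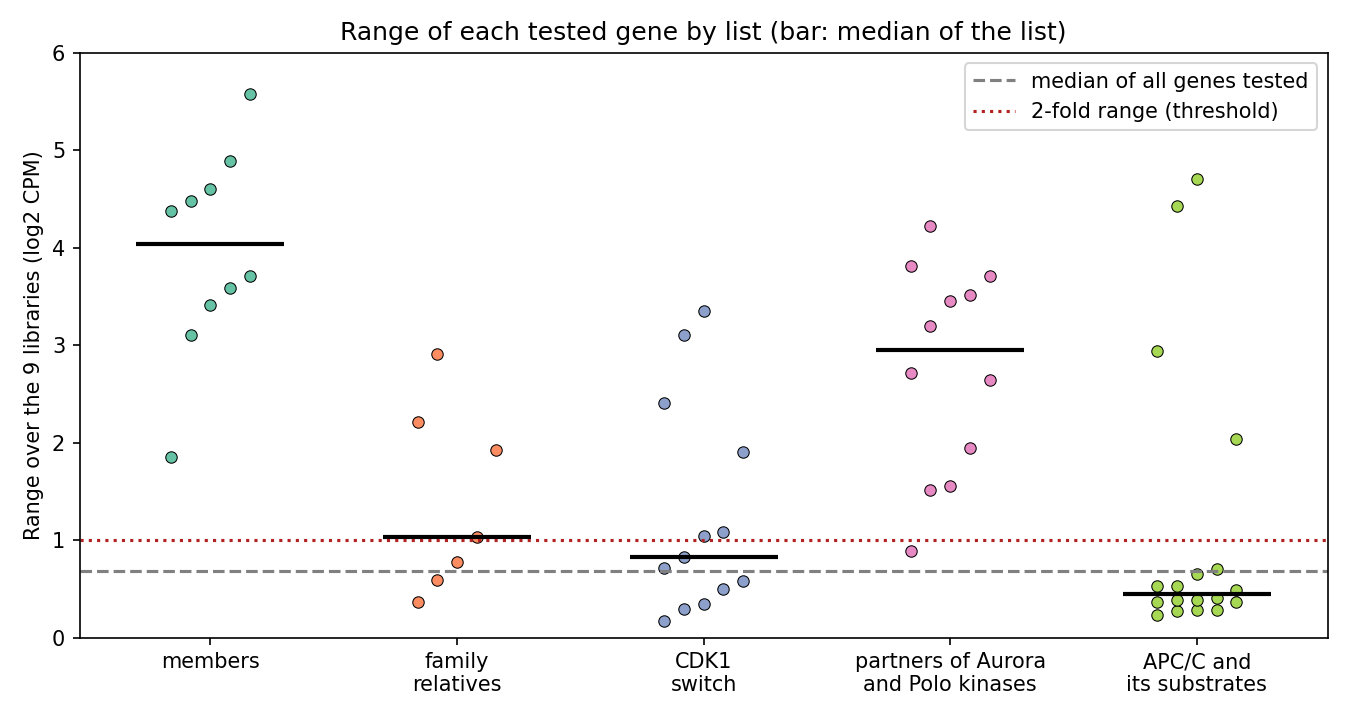
Range over the 9 libraries (log2 CPM) of each tested gene in the members and in 4 related lists, with the median of each list (bar), the median of all genes tested (dashed, 0.69) and the 2-fold threshold (dotted). The APC/C list divides into 4 genes above 2 and 14 below 1.

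To find genes that go with the members, each gene's log2 CPM minus its own median was set against the members' median profile over the 9 libraries, and the root mean square difference was taken. The 10 nearest genes outside the members were Troap (0.15 on the log2 scale), Birc5, Kif23, Melk, Kif2c, Dlgap5, Shcbp1, Espl1, Diaph3 and Sgo1 (0.22), and the median over all genes tested was 1.45. Among the members, Plk1 (0.16) and Aurkb (0.19) lay nearest the profile, which they helped to set, and Cdk1 (0.92) lay farthest, with 210 genes outside the members closer than it. Troap, a spindle-associated protein gene, spanned 0.538 (library 3) to 11.4 CPM (library 8), and Kif23, a kinesin of the central spindle, 1.25 to 19.4 CPM in the same libraries.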

How the data were processed

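Poly(A) RNA of 9 libraries was quantified by the authors as estimated counts per gene (RSEM expected counts, deposited as whole numbers without normalisation). Among the tools named in the submitters' processing notes, without their order, are RSEM 1.3.3, STAR 2.7.8a, cutadapt 2.3 and FastQC 0.11.8, with build GRCm38. Neither annotation release nor strand setting was given in the sources used here. All 9 columns matched a sample title.

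Counts were scaled with TMM (edgeR 4.0.16, R 4.3.3) over the 12813 genes that passed edgeR's filter without groups (minimum count 10, minimum total 15), which hold 99.9% of counts. The filter turns the minimum count into a CPM at the median library size. Without groups it asks for that CPM in all libraries, and all 10 members met it. Log2 CPM used a prior count of 2. With no groups, edgeR's quasi-likelihood test had no coefficient to test, so a chi-square test of dispersion was used, checked on simulated counts. Exact 95% intervals (scipy 1.17.1) are Poisson for single values and conditional binomial for ratios, and cover counting error only; highest and lowest libraries were picked by their values. RSEM shares reads that fit several rows by likelihood. Coordinates and exon lengths are from GENCODE M21 on GRCm38.

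The members and lists were chosen with earlier results of these data known. Named genes are the members, all family relatives, the 3 widest and 2 narrowest genes of each other list, and the 10 nearest to the members' profile, leaving out predicted genes. Pttg1, Fbxo5, Cdc25b, Cks1b, Cdc16, Exosc9, Elovl1, Ccnb2-ps and the markers named were chosen after their values were seen, as were the within-library ratios and library pairs. Alternatives were DESeq2 1.42.0 size factors, totals alone, 2 other filters, a prior count of 0.5, a higher range threshold and leaving out each library.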

Additional observations from a re-analysis of the deposited data

How the results depend on the processing

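All 10 members were variable under both other scalings, both other filters, a prior count of 0.5 and without any 1 library, and 9 of 10 (all but Cdk1) with a range of at least 2 on the log2 scale. The number of variable genes among all tested was 3592 of 12813, and 6374 of the 27105 rows with counts when low counts were not filtered. It was 740 with a range of at least 2 on the log2 scale, and 3268 to 3560 without 1 library. The range of the members' median profile was 4.26 on the log2 scale, and 3.42 to 4.11 without 1 library, lowest without library 8 and next without library 3 (3.87). Pairs of libraries ordered alike by all members numbered 30 of 36 under all 3 scalings, and 22 to 26 of the 28 pairs left without 1 library. The count of variable relatives was 3 with totals alone. Of 227 recomputed values 213 kept their direction and stayed within the limits set for them, 14 moved and 0 reversed. No paired analysis was possible because no library could be put in a group. Depth limits the low end most: libraries 1, 3 and 6 hold 17 to 33 counts of Ccnb2 each, and a floor of 3 counts equals 0.0742 CPM in library 7 and 0.164 in library 9.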

Other observations

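The members' median profile over the 9 libraries (the median of log2 CPM minus each gene's own median) stood at -1.60, 0.89 and -1.85 in libraries 1 to 3, -0.69, 1.74 and -1.36 in libraries 4 to 6, and 0.48, 2.40 and 0 in libraries 7 to 9. The values formed a graded series with no wide break: the gaps between neighbours ran from 0.25 (libraries 1 and 6) to 0.85 (libraries 2 and 5). None of the 10 members, nor the profile, had a library that stood apart from the other 8 by Dixon's criterion. That criterion looks for a single extreme library, so it cannot show whether several stood apart together.

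Counts of Cdc20 per count of Mki67 ran broadly against the members' shared order, though not exactly. They were 0.432, 0.152 and 0.511 in libraries 1 to 3, 0.465, 0.167 and 0.357 in libraries 4 to 6, and 0.360, 0.201 and 0.227 in libraries 7 to 9. They were lowest in libraries 2, 5 and 8, where the members' profile was highest, and highest in library 3, where it was lowest. Library 9, whose Cdc20 stood at 5.47 CPM, had an interval (exact 95%, 0.181 to 0.283) that overlapped that of library 8 (0.188 to 0.215) and lay below that of library 7 (0.321 to 0.403), its neighbour in the profile.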
